A study of Mus musculus with 12 samples.

Results

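Cells that receive TGF-β, Activin or BMP ligands phosphorylate SMAD transcription factors, and among the genes that SMADs switch on are several whose products dampen the same pathway. Such feedback inhibitors work at every level of the cascade, from decoy receptors in the membrane and inhibitory SMADs at the receptor to ubiquitin ligases and corepressors bound to SMADs in the nucleus. In the inner ear, TGF-β–type ligands and their antagonist follistatin pattern the sensory epithelium, and graded Activin signaling times the differentiation of hair cells. The 10 genes described here are Smad7, Smad6, Skil, Ski, Pmepa1, Ldlrad4, Bambi, Smurf1, Smurf2 and Tgif1, out of 36047 mouse genes in the tables, and all 10 passed the filter on low counts that left 18780 genes. They were selected on their role as inhibitors together with gene-level counts in these same 12 libraries. Their gene-level differences between conditions are therefore given as a description, with no p-value, and the number that passed the threshold carries no evidence of its own.

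Total RNA was sequenced from organoids grown out of dissociated cochlear epithelial cells of 5-day-old mice, after 7 days of expansion in Matrigel. FST+LIN28B organoids (TRE-FST-288 tg and Col1a1-TRE-LIN28B tg on R26rtTA*M2/+) carried doxycycline-inducible human transgenes for both follistatin and LIN28B. LIN28B organoids (Col1a1-TRE-LIN28B tg;R26rtTA*M2/+) carried the LIN28B transgene alone. FST organoids (TRE-FST-288 tg;R26rtTA*M2/+) carried the follistatin transgene alone, and control organoids came from littermates with R26rtTA*M2/+ only. Every condition, control included, thus had the rtTA activator at the ubiquitously active Rosa26 locus and received doxycycline at 0.5 μg/ml with EGF, FGF2, the GSK3 inhibitor CHIR99021 and VPA. The transgenes were not restricted to 1 cell type. There were 3 libraries per condition, which the study took from different animals of both sexes.

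Follistatin is a secreted protein that binds Activins and keeps them from their receptors. LIN28B is an RNA binding protein that blocks the maturation of let-7 microRNAs. Levels are in CPM, the counts of a gene scaled to a library size normalized by TMM. Mouse Fst was counted at 817, 334 and 719 CPM in FST+LIN28B replicates 1, 2 and 3 and at 445, 116 and 326 CPM in FST, against 17.3 to 22.5 CPM in LIN28B and 7.72 to 13.1 CPM in control. Lin28b was counted at 187 to 306 CPM in FST+LIN28B and 193 to 480 CPM in LIN28B, against 16.9 to 22.1 CPM in FST and 21.3 to 24.5 CPM in control, so both labels held in every library. Since the transgenes are human, reads of endogenous and transgene RNA can both be part of these mouse-gene levels.

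Libraries held 42.7 to 65.3 M estimated counts. FST replicate 2 was the shallowest, had 3.23% of its counts on ribosomal protein genes against 3.94% to 4.57% elsewhere, and is left out in turn beside the results it touches. Epithelial and supporting cell markers were all detected (16 of 16), and their summed level was 3498 to 3520 CPM in FST+LIN28B and 3045 to 3469 CPM in LIN28B, against 4996 to 5611 CPM in FST and 4820 to 5001 CPM in control. Summed endothelial markers were at 94.2 to 129 CPM in FST+LIN28B, 36.6 to 58.9 CPM in LIN28B, 61.7 to 71.4 CPM in FST and 39.5 to 55.6 CPM in control, and mesenchymal markers at 2000 to 2290, 2037 to 2740, 1871 to 2979 and 2444 to 2644 CPM in the same order. One gene carried most of the difference in each of the first 2 sums. Without Tecta, which encodes a protein of the tectorial membrane, the epithelial sum was 3128 to 3265 CPM in FST+LIN28B, 2840 to 3067 in LIN28B, 3206 to 3828 in FST and 3116 to 3466 in control. Without Tek, the endothelial sum was 20.7 to 33.5, 22.4 to 27.1, 25.3 to 35.8 and 23.8 to 27.2 CPM in the same order, so that all conditions overlapped. Such sums hide markers at lower levels. Of the 16 epithelial and supporting cell markers, edgeR called 2 lower and 1 higher in LIN28B than in control. At an unadjusted p under 0.05, 8 were lower and 4 higher there, with a list median of −0.33. In FST+LIN28B against control 1 was called lower, and in FST against control 0. Hair cell markers summed to 115 to 144 CPM in FST+LIN28B, 105 to 117 CPM in LIN28B, 94.6 to 118 CPM in FST and 96.2 to 103 CPM in control. Of 8 tested, 2 (Pou4f3 and Espn) were called higher in FST+LIN28B and 3 (Pou4f3, Espn and Myo7a) in LIN28B than in control, with list medians of 1.23 and 1.25 on the log2 scale. At an edgeR unadjusted p under 0.05, 5 were higher and 0 lower in each, and DESeq2 called 5 and 3 higher. In FST+LIN28B against LIN28B edgeR and DESeq2 called 0, with 2 higher and 0 lower at an edgeR unadjusted p under 0.05. Atoh1 was at 2.91 to 3.78 CPM in FST+LIN28B, 0.21 to 1.88 CPM in LIN28B, 0.22 to 0.52 CPM in FST and 0.12 to 0.32 CPM in control. Of 8 tested neuron markers, Nefl was called higher in FST+LIN28B and in LIN28B than in control, and Nefm in LIN28B than in control. Their sums were 145 to 182 CPM in FST+LIN28B, 144 to 177 CPM in LIN28B, 127 to 154 CPM in FST and 139 to 158 CPM in control. Summed immune markers were at 3.72 to 8.05 CPM and Schwann cell markers at 216 to 246 CPM over the 12 libraries. The part of any of these markers in the results below was not tested. In bulk RNA, fewer cells of a type and less RNA per cell cannot be told apart.

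The 10 genes lie on 8 chromosomes of GRCm38 and all are protein coding. Smad7 (18:75367529-75395935, plus strand), Ldlrad4 (18:67933257-68268630, plus) and Bambi (18:3507923-3516404, plus) share a chromosome. Smad6 lies at 9:63953076-64022059 (minus), Skil at 3:31095058-31122577 (plus) and Ski at 4:155154075-155222592 (minus). Pmepa1 lies at 2:173224458-173276533 (minus), Smurf1 at 5:144876495-144965847 (minus), Smurf2 at 11:106820066-106920715 (minus) and Tgif1 at 17:70844205-70853546 (minus).

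Levels of different genes were compared per length, in TPM, relative transcript abundances computed from the estimated counts and effective lengths. In control organoids Tgif1 stood highest at 85.2 ± 1.64 TPM (SD, n = 3) and Ldlrad4 lowest at 4.38 ± 0.48 TPM. Between them, Smurf2 was at 43.6 ± 2.58 TPM and Ski at 25.5 ± 0.19 TPM. Skil (23.0 ± 1.41 TPM) and Smurf1 (22.6 ± 1.57 TPM) did not differ beyond their spread. Smad6 followed at 15.9 ± 1.93 TPM, and then Smad7 (11.9 ± 2.08 TPM), Bambi (10.9 ± 0.24 TPM) and Pmepa1 (10.8 ± 0.92 TPM), which overlapped each other. The fewest counts behind any library's value were 150, for Ldlrad4 in FST+LIN28B replicate 2. The spread between libraries exceeded the counting error of the mean count in 36 of the 40 combinations of gene and condition, and was more than 2 times as large in 28. The exceptions were Bambi and Pmepa1 in control, Smurf1 in LIN28B and Smad7 in FST, whose SD may be too small to stand for the spread between animals.

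**Figure D1:**
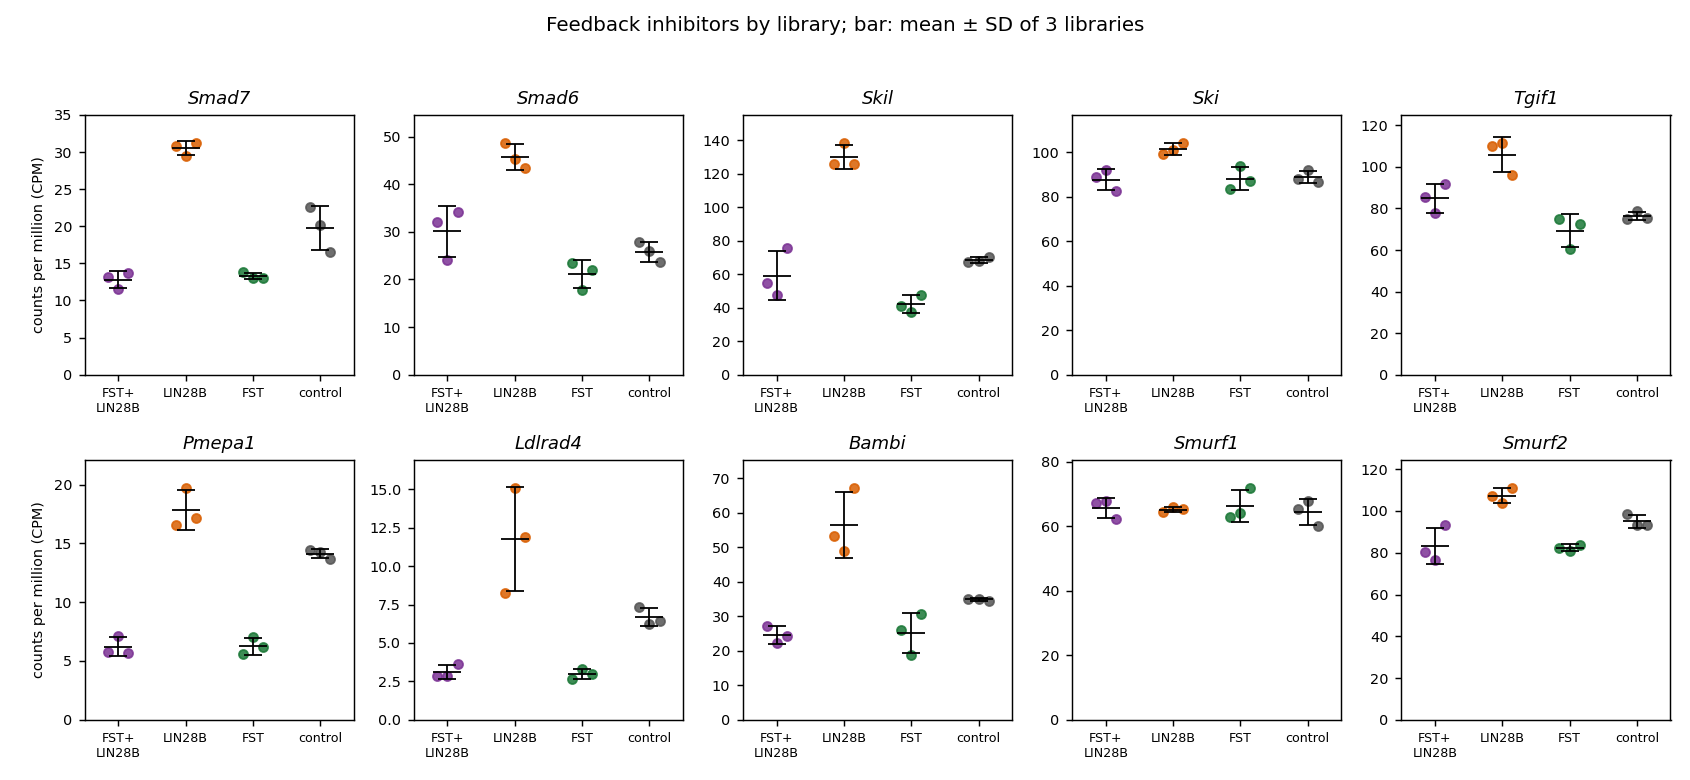
TMM-normalized CPM (linear axes that start at 0) of the 10 feedback inhibitors in each library, in FST+LIN28B, LIN28B, FST and control organoids. Points are libraries and bars are the mean ± SD of 3; Pmepa1 sat between 5.60 and 7.14 CPM in the 6 libraries with FST and between 13.7 and 19.7 CPM in the 6 without, whereas Smurf1 stayed between 59.9 and 71.9 CPM in all 12.

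The inhibitory SMADs were highest in LIN28B organoids. SMAD7 binds activated type I receptors of both the TGF-β and the BMP branch, blocks the phosphorylation of receptor SMADs and recruits SMURF ubiquitin ligases. Smad7 was at 13.1, 11.5 and 13.8 CPM in FST+LIN28B replicates 1, 2 and 3, at 30.8, 29.5 and 31.3 CPM in LIN28B, at 13.78, 13.04 and 13.01 CPM in FST, and at 22.6, 20.2 and 16.6 CPM in control. LIN28B stood above control, and control above FST and FST+LIN28B, which overlapped each other. The log2 fold change was −1.25 (SE 0.12) for FST+LIN28B against LIN28B and −0.63 (0.12) for FST+LIN28B against control. For LIN28B against control it was 0.63 (0.12), and for FST against control it was −0.57 (0.12).

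SMAD6 acts mainly on the BMP branch, where it competes with SMAD4 for SMAD1. Smad6 was at 32.2, 24.1 and 34.2 CPM in FST+LIN28B, at 48.8, 45.3 and 43.4 CPM in LIN28B, at 23.4, 17.8 and 22.0 CPM in FST, and at 27.9, 25.9 and 23.6 CPM in control. LIN28B was again above all other conditions, but here FST+LIN28B overlapped control and lay above FST. Fitted log2 fold changes were 0.83 (SE 0.14) for LIN28B against control, 0.52 (0.14) for FST+LIN28B against FST, −0.60 (0.14) for FST+LIN28B against LIN28B and −0.29 (0.14) for FST against control. The 250 bases upstream of the start of Smad6 (9:64022060-64022309, GRCm38.p6, minus strand) are shown because Smad6 is the highest of the inhibitory SMADs in TPM and a textbook SMAD1 target. They are from a table of RefSeq windows that was used here for 5 of the 10 genes. The other 5 (Smad7, Skil, Pmepa1, Ldlrad4 and Bambi) were not analysed. Those are the 5 members called lower in FST+LIN28B against LIN28B below, so the windows described do not stand for the whole set. Capitals would mark CAGAC, the core of the SMAD3/SMAD4 binding element, on either strand, or GGCGCC, a GC-rich SMAD motif that reads the same on both strands, and these letters do not occur in this window:
Smad6 upstream: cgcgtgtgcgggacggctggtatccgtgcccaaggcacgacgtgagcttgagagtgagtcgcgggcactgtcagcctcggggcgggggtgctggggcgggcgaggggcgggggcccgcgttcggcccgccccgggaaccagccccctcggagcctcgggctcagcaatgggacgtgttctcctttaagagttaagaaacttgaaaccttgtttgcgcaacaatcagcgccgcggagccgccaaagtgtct
Of 32851 windows of the same length, 42.2% hold CAGAC on either strand and 9.59% hold GGCGCC.

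Among the nuclear corepressors, Skil varied most. SKIL (SnoN) and SKI bind SMAD2/3 with SMAD4 and recruit histone deacetylases to their targets, and TGF-β signaling degrades SnoN protein while it induces the Skil gene. Skil was at 54.6, 47.8 and 75.4 CPM in FST+LIN28B, at 126, 139 and 126 CPM in LIN28B, at 41.3, 37.3 and 47.8 CPM in FST, and at 67.2, 68.1 and 70.4 CPM in control. The LIN28B libraries were far above the rest, the FST libraries lay below control, and FST+LIN28B was spread widely enough to overlap both FST and control. The log2 fold change was 0.93 (SE 0.15) for LIN28B against control, −0.70 (0.15) for FST against control, −1.14 (0.15) for FST+LIN28B against LIN28B and 0.49 (0.15) for FST+LIN28B against FST.

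Because LIN28B acts on let-7, the 3′ untranslated regions of the 10 genes were searched for the letters that pair with bases 2 to 8 of the mature microRNA (CTACCTC). RefSeq (GRCm38.p6) held 9 mature sequences of the family, and all 9 had the same seed. They include let-7a-5p, let-7g-5p and let-7d-5p, shown with the seed in capitals:
mmu-let-7a-5p: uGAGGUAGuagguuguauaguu
mmu-let-7g-5p: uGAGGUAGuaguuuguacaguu
mmu-let-7d-5p: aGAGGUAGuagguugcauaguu
Skil alone among the 10 genes held this match, once, at base 3739 of the 3′ untranslated region of transcripts Skil-201 and Skil-204 (3:31122336-31122360, GRCm38, plus strand). The site is shown because Skil was among the genes higher in LIN28B, with the 8 matching letters, the seed match and the A that follows it, in capitals:
Skil site: cacacaaaactgtcctCTACCTCAc
Of 21045 genes with an annotated 3′ untranslated region, 9.02% held the match in the longest one. The shorter match to bases 2 to 7 followed by A occurred 3 times in Skil-201 and Skil-204 and once in Smurf2-202, so 2 of the 10 genes held either match, as 14.9% of all genes did. The 2 Skil transcripts that contain the site took 67.2% to 81.2% of Skil counts over the 12 libraries. Of 12 let-7 targets in a separate list, 8 were called higher in FST+LIN28B and 7 in LIN28B than in control. In FST against control edgeR and DESeq2 each called 0 of the 12, with 3 higher and 0 lower at an unadjusted p under 0.05. Hmga2, which encodes an architectural chromatin protein, was at 163 to 192 CPM in FST+LIN28B and 177 to 215 CPM in LIN28B, against 18.7 to 29.2 CPM in FST and 15.2 to 18.2 CPM in control. Skil in FST+LIN28B overlapped both control and FST. Its log2 fold change for FST+LIN28B was −0.21 (SE 0.15) against control and 0.49 (0.15) against FST, neither of them called. In FST+LIN28B against FST, 7 of the 12 let-7 targets were called higher, with a list median of 0.96. Whether let-7 had a part in the Skil levels was not tested. The match is letters only, and microRNA levels and binding were not measured here.

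Ski, the paralog of Skil, hardly varied. It was at 88.8, 91.8 and 82.4 CPM in FST+LIN28B, at 99.2, 101 and 104 CPM in LIN28B, at 83.4, 93.8 and 87.1 CPM in FST, and at 88.1, 91.7 and 86.5 CPM in control. Only the LIN28B libraries stood apart, by a log2 fold change of 0.19 (SE 0.08) against control, while FST differed from control by −0.01 (0.08).

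TGIF1 is a homeodomain protein that binds SMAD2 and recruits corepressors. Tgif1 was at 85.6, 77.7 and 91.6 CPM in FST+LIN28B, at 110, 112 and 96.3 CPM in LIN28B, at 75.2, 60.4 and 72.4 CPM in FST, and at 74.9, 78.7 and 75.4 CPM in control. As with Smad6, LIN28B was on top and FST+LIN28B lay above FST but overlapped control, and FST overlapped control as well. LIN28B differed from control by a log2 fold change of 0.47 (SE 0.10), and the value was −0.32 (0.10) for FST+LIN28B against LIN28B and 0.29 (0.10) for FST+LIN28B against FST.

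Of the 10 genes, the membrane inhibitors Pmepa1 and Ldlrad4 had the widest gaps in CPM ratio between organoids with and without the FST transgene. PMEPA1 is a membrane protein that binds receptor SMADs through its SMAD interaction motif and keeps them from the type I receptor. Pmepa1 was at 5.80, 7.14 and 5.72 CPM in FST+LIN28B, at 16.6, 19.7 and 17.2 CPM in LIN28B, at 5.60, 7.02 and 6.16 CPM in FST, and at 14.4, 14.3 and 13.7 CPM in control. FST+LIN28B and FST overlapped at the bottom, control was above both, and LIN28B was above control. The log2 fold change was −1.18 (SE 0.13) for FST+LIN28B against control, −1.17 (0.13) for FST against control and −1.52 (0.14) for FST+LIN28B against LIN28B. For LIN28B against control it was 0.34 (0.13), and for FST+LIN28B against FST it was −0.01 (0.13).

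LDLRAD4 is related to PMEPA1 and holds SMAD2/3 away from the receptor in the same manner. Ldlrad4 was at 2.87, 2.84 and 3.64 CPM in FST+LIN28B, at 8.28, 15.1 and 11.9 CPM in LIN28B, at 2.63, 3.28 and 2.995 CPM in FST, and at 7.36, 6.22 and 6.46 CPM in control. The order was that of Pmepa1, with a wider spread in LIN28B. The log2 fold change was −1.10 (SE 0.21) for FST+LIN28B against control, 0.82 (0.21) for LIN28B against control, −1.17 (0.21) for FST against control and −1.92 (0.22) for FST+LIN28B against LIN28B, the largest of any of the 10 genes in the 6 comparisons.

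BAMBI is a decoy receptor that resembles type I receptors but lacks the kinase domain. Bambi was at 27.3, 22.3 and 24.2 CPM in FST+LIN28B, at 53.3, 48.9 and 67.3 CPM in LIN28B, at 26.0, 18.9 and 30.6 CPM in FST, and at 35.1, 35.2 and 34.4 CPM in control. LIN28B lay above control and control above the 6 libraries with FST, among which FST+LIN28B and FST overlapped. On the log2 scale the difference was −1.20 (SE 0.17) for FST+LIN28B against LIN28B, 0.69 (0.17) for LIN28B against control and −0.47 (0.17) for FST against control.

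The ubiquitin ligases differed little. SMURF1 and SMURF2 mark SMADs and, bound to SMAD7, type I receptors for degradation. Smurf1 was at 67.3, 67.9 and 62.2 CPM in FST+LIN28B, at 64.3, 65.8 and 65.3 CPM in LIN28B, at 62.9, 64.1 and 71.9 CPM in FST, and at 65.3, 67.8 and 59.9 CPM in control. All 4 conditions overlapped, and no log2 fold change exceeded 0.04 (SE 0.08), the value for FST against control.

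Smurf2 was at 80.2, 76.8 and 93.1 CPM in FST+LIN28B, at 107, 104 and 111 CPM in LIN28B, at 82.4, 80.7 and 83.9 CPM in FST, and at 98.8, 93.1 and 93.2 CPM in control. The order was that of Smad7 at a much smaller scale, with log2 fold changes of −0.37 (SE 0.08) for FST+LIN28B against LIN28B, 0.18 (0.08) for LIN28B against control and −0.21 (0.08) for FST against control. The 250 bases upstream of Smurf2 (11:106920716-106920965, GRCm38.p6, minus strand, RefSeq) are shown because its window held both SMAD motifs, in capitals, GGCGCC at 2 places and GTCTG, the reverse complement of CAGAC, at 1, with no overlap between them:
Smurf2 upstream: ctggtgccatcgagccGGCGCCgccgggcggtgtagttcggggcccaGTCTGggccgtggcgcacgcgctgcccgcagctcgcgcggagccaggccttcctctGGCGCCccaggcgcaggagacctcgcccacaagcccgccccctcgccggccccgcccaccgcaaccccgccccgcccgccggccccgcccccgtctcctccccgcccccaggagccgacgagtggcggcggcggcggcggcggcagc
Smurf1, whose level was flat, held CAGAC or its reverse complement at 2 places and no GGCGCC in its window. The Ski window held GGCGCC at 1 place, and 3 of the 5 windows of Tgif1 held CAGAC or its reverse complement. The letters are a description of these windows and no measure of SMAD binding.

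**Figure D2:**
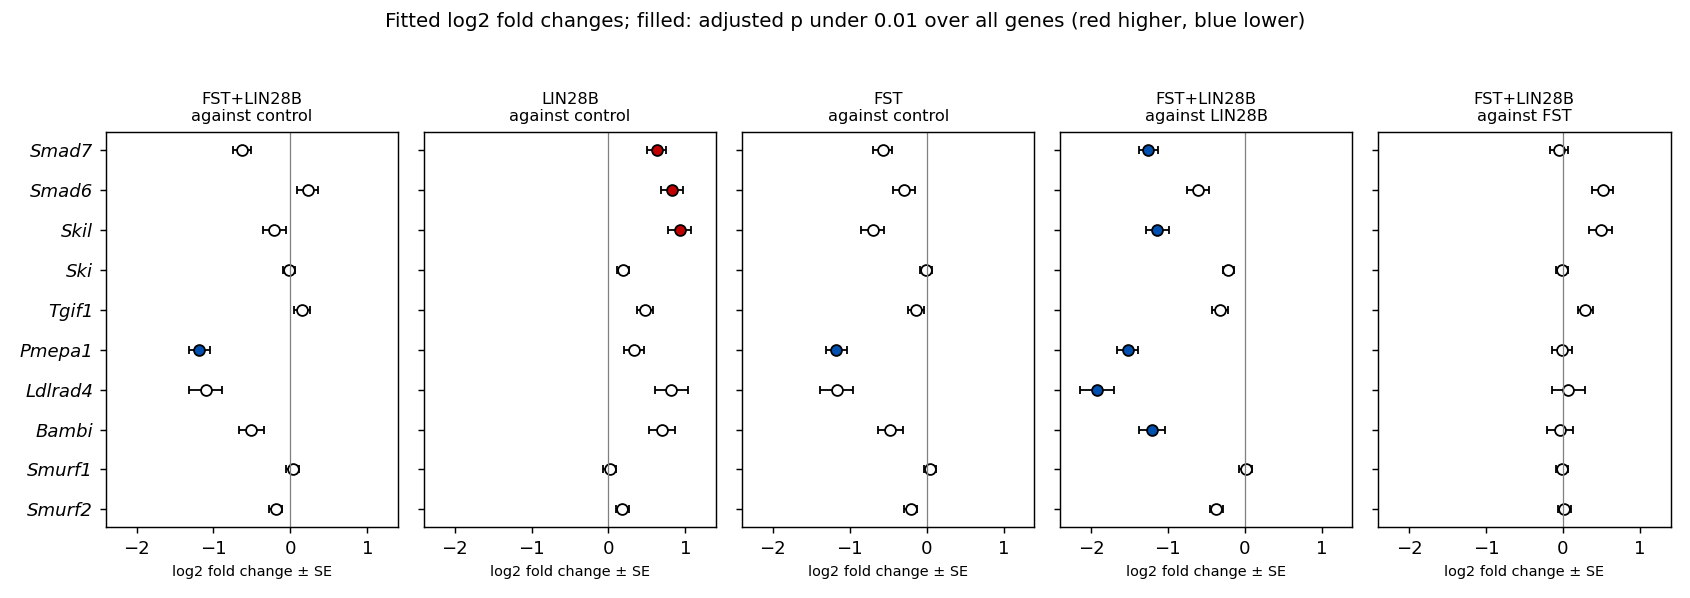
Fitted log2 fold change (points) ± SE (bars) of each gene in 5 comparisons, on a common axis; filled points passed an adjusted p under 0.01 over all 18780 genes, red for higher and blue for lower. FST+LIN28B against LIN28B holds 5 filled points, down to −1.92 for Ldlrad4, and FST+LIN28B against FST holds none.

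Counted over the 10 genes, FST+LIN28B against LIN28B had the most members past the threshold of the fit over all genes, an edgeR quasi-likelihood adjusted p under 0.01. Smad7, Skil, Pmepa1, Ldlrad4 and Bambi were called lower there and no member higher, where 0.288% of all genes were called lower and 0.218% higher. The median log2 fold change of the 10 was −0.87, against 0.01 over all genes tested, and 9 of 10 had groups that did not overlap, as 17.5% of all genes did. With 1 library left out, 3 members (Smad7, Pmepa1 and Ldlrad4) were called when replicate 1 or 2 of either LIN28B or FST+LIN28B was missing, and 4, all but Bambi, when replicate 3 of either was missing. The calls over all genes by edgeR, 95 with every library, numbered 32 to 79 in those 6 fits. At an unadjusted p under 0.05 there were 9 members lower and 0 higher, where 5.16% of all genes were lower and 5.07% higher, and DESeq2 called 7 members lower, where it called 1.35% of all genes lower and 1.13% higher.

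In LIN28B against control, Smad7, Smad6 and Skil were called higher and no member lower, where 2.1% of all genes were called higher and 1.33% lower. All 10 log2 fold changes were positive, with a median of 0.55 against −0.03 over all genes. Groups did not overlap for 9 of the 10, all but Smurf1, and for 36.6% of all genes. No member was called without control replicate 2, control replicate 3, LIN28B replicate 1 or LIN28B replicate 2, and 1 (Smad7) without control replicate 1, whereas Bambi and Tgif1 were called beside the 3 without FST replicate 2. Smad7 alone dropped out when FST replicate 1 or 3, LIN28B replicate 3 or FST+LIN28B replicate 1 was missing. At an unadjusted p under 0.05, 8 members were higher and 0 lower, where 12.3% of all genes were higher and 8.87% lower, and DESeq2 called 6 members higher, where it called 5.44% of all genes higher and 3.36% lower. The edgeR calls over all genes moved with the library left out as well, with 644 in the full fit, 169 to 218 in the 4 fits with no member, 315 without control replicate 1 and 1362 without FST replicate 2.

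In FST against control only Pmepa1 was called, lower, where 0.0213% of all genes (4) were called lower and 0% higher. Fst itself, at 116 to 445 CPM against 7.72 to 13.1 CPM in control, was not called by edgeR. At an unadjusted p under 0.05 the fit gave 440 genes higher (2.34%) and 262 lower (1.4%), of which 6 were members, all lower. DESeq2 called 4 members lower (Smad7, Skil, Pmepa1 and Ldlrad4), where it called 0.198% of all genes lower and 0.166% higher. The median of the 10 was −0.38 against 0.04 over all genes, and 7 of 10 had groups that did not overlap, as 7.64% of all genes did. The Pmepa1 call was kept in only 2 of the 12 fits that left out a library, those without FST replicate 2 and without FST+LIN28B replicate 2, while its log2 fold change stayed between −1.26 and −1.12.

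In FST+LIN28B against control Pmepa1 was called lower and no member higher, where 0.463% of all genes were called lower and 0.793% higher. The median was −0.20 against −0.01 over all genes, and 5 of 10 had groups that did not overlap, where 30.3% of all genes did. Without FST replicate 2, Smad7 and Ldlrad4 were called lower as well, and without LIN28B replicate 1 Ldlrad4 was, with 582 and 175 genes called in all, against 236 in the full fit. In all, 5 members were lower and 0 higher at an unadjusted p under 0.05, where 6.01% of all genes were lower and 9.78% higher, and DESeq2 called 3 members lower, where it called 1.77% of all genes lower and 3.23% higher. The 3 comparisons against control share the control libraries.

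FST+LIN28B against FST called 0 members by edgeR, DESeq2 or limma, where 0.57% of all genes were called higher and 0.383% lower. At an unadjusted p under 0.05 there were 3 members higher (Smad6, Skil and Tgif1) and 0 lower, where 7.63% of all genes were higher and 7.76% lower. DESeq2 called 2.53% of all genes higher and 1.86% lower there. The 3 members' log2 fold changes were 0.52 (SE 0.14), 0.49 (0.15) and 0.29 (0.10), and groups did not overlap for Smad6 and Tgif1, 2 of 10, as in 16.6% of all genes. The other 7 members differed by −0.05 to 0.07.

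The interaction asks whether FST+LIN28B differs from the sum of the single effects on the log2 scale. It was negative for all 10 members, with a median of −0.33 against −0.03 over all genes. The interaction subtracts the level in LIN28B, so this shared sign is not independent of the positive values in LIN28B against control above. Bambi had −0.73 (SE 0.23), Ldlrad4 −0.75 (0.30) and Smad7 −0.68 (0.17), and Smurf1 the smallest, −0.03 (0.12). No member was called by edgeR, DESeq2 or limma, 3 were lower at an unadjusted p under 0.05, and over all genes 0.00532% were called higher and 0% lower, with 263 higher (1.4%) and 409 lower (2.18%) at an unadjusted p under 0.05. DESeq2 called 0.05% of all genes higher and 0.133% lower.

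**Figure D3:**
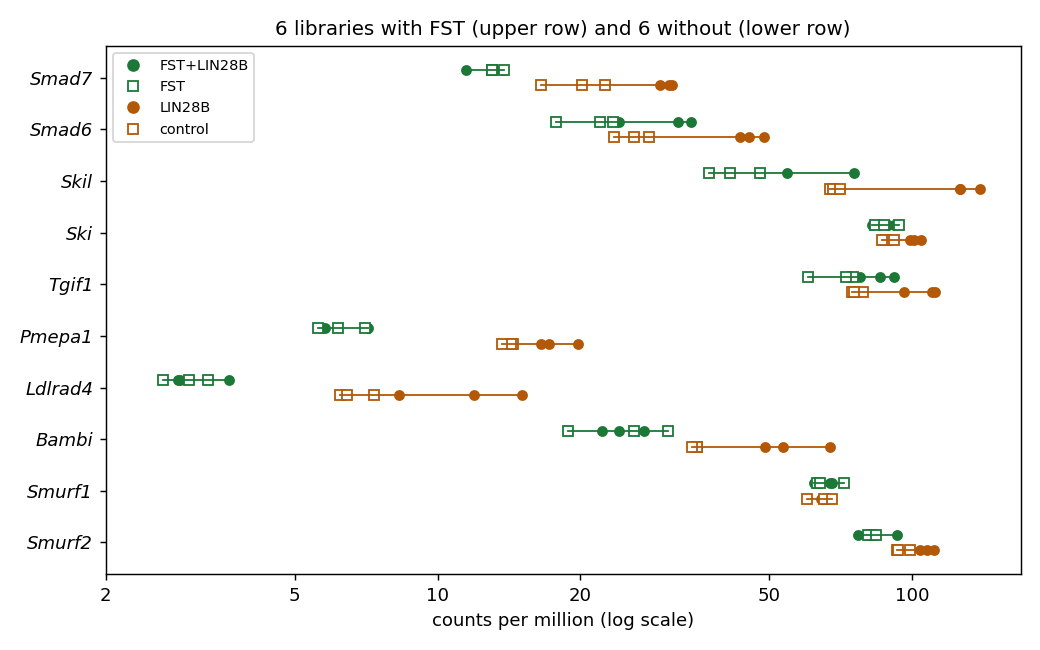
CPM (log axis) of each gene in the 6 libraries with the FST transgene (green, upper row of each pair; filled circles FST+LIN28B, open squares FST) and the 6 without it (brown, lower row; filled circles LIN28B, open squares control), with lines from the lowest to the highest. The rows do not overlap for Smad7, Pmepa1, Ldlrad4, Bambi and Smurf2, with the widest gap for Pmepa1 (7.14 against 13.7 CPM) and the narrowest for Smurf2 (93.06 against 93.09 CPM).

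Set against the crossed design, 5 of the 10 genes (Smad7, Pmepa1, Ldlrad4, Bambi and Smurf2) had all 6 libraries with the FST transgene below all 6 without it, as did 0.458% of all genes (86 of 18780). Smad7 reached 13.8 CPM with FST and was at 16.6 CPM or more without it. The corresponding values were 3.64 and 6.22 CPM for Ldlrad4 and 30.6 and 34.4 CPM for Bambi. In TPM the rows of Smad7, Pmepa1, Ldlrad4 and Bambi stayed apart, those of Smurf2 overlapped (43.7 TPM with FST, 41.4 TPM without) and those of Skil came apart by a small margin (21.7 against 21.9 TPM). No member had all 6 libraries with LIN28B above or below all 6 without it, where 4.58% of all genes were above and 3.49% below.

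A measure that the choice of genes did not use is the share of a gene's counts held by each of its transcripts. The 10 genes had 46 transcripts in the tables, of which 38 in 8 genes could be tested. Averaged over the other transgene, neither libraries with FST against those without nor libraries with LIN28B against those without gave a called member transcript (edgeR, 0 of 38 each), where 0.162% and 0.273% of all 62970 transcripts tested were called. At an unadjusted p under 0.05 there were 0 with FST and 2 with LIN28B, and limma called 0 in both.

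Most genes had 1 leading transcript. Smad7-201 took a mean of 92.9% of Smad7 counts in FST+LIN28B, 92.4% in LIN28B, 92.4% in FST and 93.1% in control (n = 3 each). Pmepa1-201 took 86.3%, 82.7%, 85.8% and 82.9% in the same order, and Pmepa1-203 12.4%, 15.7%, 12.96% and 15.7%. Skil-204 took 65.98% in FST+LIN28B, 73.8% in LIN28B, 74.3% in FST and 71.0% in control, with Skil-203 at 20.4% to 23.8%.

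Skil-201 came nearest to the threshold for LIN28B (edgeR adjusted p = 0.0493 over all transcripts). It took 22.3% of Skil counts in FST+LIN28B replicate 3 and 2.60% in replicate 2, against 2.19% in LIN28B replicate 1 and at most 0.63% in each of the other 9 libraries. The value depended on single libraries. The adjusted p was 0.803 without FST+LIN28B replicate 3 and 1 without LIN28B replicate 1, was 0.0257 to 0.178 in the other 10 fits that left out a library, and was 1 by limma. Settings of this transcript were added after its values were seen. Skil-201 and Skil-204 share most of their sequence, so reads could be divided between them in more than 1 way. For the ligases, Smurf1-201 took 72.9% to 80.5% and Smurf1-202 9.30% to 14.3% of their gene as condition means, and Smurf2-202 took 61.6% to 64.9% and Smurf2-206 24.8% to 28.7%. Tgif1-201 took 63.3% to 65.8% and the retained intron transcript Tgif1-212 9.80% to 12.2%.

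Genes most like each called member over the 12 libraries were found by the Pearson correlation of log2 CPM among 11083 genes at 5 CPM or more. Libraries of 1 condition share its mean, so the coefficient mostly follows the 4 conditions and is given as a description. Nearest to Pmepa1 were Scx, a transcription factor of tendon and other connective tissue (r = 0.978), Ptpru, a receptor phosphatase (0.978), and Ldlrad4 itself (0.956). Nearest to Ldlrad4 were Ptpru (0.960), Rassf9 (0.959) and Htra1, a secreted protease that cleaves matrix proteins (0.956).

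Smad7 was most like Htra1 (0.969), Frmpd1 (0.965) and Smurf2 (0.947). Smad6 was most like Sp5, a Wnt target that encodes a zinc finger protein (0.973), Tgif1 (0.972) and Mettl11b (0.961). Skil was most like Nedd9, a docking protein of focal adhesions (0.977), Tenm3 (0.967) and Olfml2b (0.961), and Bambi most like Olfml2b (0.957), Pepd (0.950) and Lrp11 (0.939). Other feedback inhibitors were among the 3 nearest genes for Pmepa1 (Ldlrad4), Smad7 (Smurf2) and Smad6 (Tgif1). As the members were selected with these same counts, this carries no evidence of its own. For deviations from condition means, the correlations of these pairs were 0.405, 0.606 and 0.815. Over all pairs of members such values ranged from −0.815 to 0.815.

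The other genes of the pathway were read from lists, each with its calls by the same fit. Of 19 other intracellular inhibitors, which include further ubiquitin ligases such as Nedd4l and phosphatases such as Ppm1a, only Ctdspl, a small C-terminal phosphatase, was called by edgeR in any comparison. It was lower in LIN28B than in control by −0.84 (SE 0.15, edgeR adjusted p = 0.00495), a call lost under 10 of 23 alternatives, and the list's median was −0.06 in LIN28B against control and 0.04 in FST+LIN28B against LIN28B. DESeq2 called 1 of the list lower in LIN28B against control and 1 lower in FST+LIN28B against FST. At an edgeR unadjusted p under 0.05, 2 were higher and 2 lower in LIN28B against control. In FST+LIN28B, 3 were higher and 2 lower against control, and 3 higher and 0 lower against LIN28B. The members' medians were 0.55 in LIN28B against control and −0.87 in FST+LIN28B against LIN28B. Since the members were selected with these counts, the difference between the lists is not independent of that choice, and it was not tested.

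Of 15 tested secreted antagonists edgeR called only Fst, whose counts can include transgene reads. Fst was higher in FST+LIN28B than in control (6.02 on the log2 scale) and than in LIN28B (4.97). In FST against control edgeR called 0 of the 15, although Fst was at 116 to 445 CPM against 7.72 to 13.1 CPM. DESeq2 called 1 higher there. Even a difference of that size could thus go uncalled by edgeR in FST against control. Among 11 tested TGF-β and Activin ligands, only Tgfb2 was called by edgeR. It was at 484, 528 and 576 CPM in FST+LIN28B, at 996, 753 and 1016 CPM in LIN28B, at 379, 428 and 440 CPM in FST, and at 737, 718 and 735 CPM in control. All 6 libraries with FST lay below all 6 without, and the call was for FST+LIN28B against LIN28B, at −0.80 (SE 0.13) on the log2 scale with an edgeR adjusted p of 0.00843. It was lost under 14 of 23 alternatives. DESeq2 called 2 of these ligands higher and 1 lower in FST+LIN28B against control, and 1 higher in LIN28B against control. It called 1 lower in FST against control and 1 lower in FST+LIN28B against LIN28B. Inhba was at 45.8 to 77.9 CPM in FST+LIN28B, 47.6 to 57.9 CPM in LIN28B, 47.5 to 60.7 CPM in FST and 33.1 to 36.2 CPM in control.

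Among 14 BMP and GDF ligands, Bmp2 was called higher in LIN28B than in control (2.11, SE 0.34, edgeR adjusted p = 0.00282) and lower in FST+LIN28B than in LIN28B (−3.09, 0.36, 0.00117). Its level was low throughout, with 0.35 to 0.66 CPM in FST+LIN28B, 2.47 to 5.21 CPM in LIN28B, 0.24 to 0.30 CPM in FST and 0.75 to 1.02 CPM in control. Bmp6 was lower in LIN28B than in control (−1.12, 0.14) and in FST+LIN28B than in FST (−1.18, 0.14). Of the 14, DESeq2 called 1 higher and 2 lower in FST+LIN28B against control, and 2 higher and 2 lower in LIN28B against control. It called 1 lower in FST against control, 1 lower in FST+LIN28B against LIN28B and 2 lower in FST+LIN28B against FST.

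Upstream of the inhibitors, 15 receptors and co-receptors and 6 signaling SMADs were tested. Tgfbr1, the type I TGF-β receptor, was called higher in FST+LIN28B than in control (0.92, SE 0.12), in LIN28B than in control (0.67, 0.12) and in FST+LIN28B than in FST (0.77, 0.12). Smad3 was called higher in the same 3 comparisons, by 0.51, 0.55 and 0.61 (0.08 each). Of 23 alternatives, 11 lost the Smad3 call in FST+LIN28B against control and 8 the Tgfbr1 call in FST+LIN28B against FST. Rgma, a BMP co-receptor, was lower in LIN28B than in control (−0.76, 0.12). In FST against control edgeR and DESeq2 called 0 of these genes, 0 of them at an unadjusted p under 0.05 either. In FST+LIN28B against LIN28B edgeR called 0, DESeq2 called 1 receptor higher, and 1 receptor was higher and 1 lower at an unadjusted p under 0.05. Tgfbr1 and Smad3 were thus high in both conditions with LIN28B. By contrast, Smad7, Pmepa1, Ldlrad4 and Bambi lay above control in LIN28B and below it in FST+LIN28B. Of these, only Smad7 was called in LIN28B against control, and only Pmepa1 in FST+LIN28B against control. Not all members were of this kind, as Smad6, Skil and Tgif1 had 0.52, 0.49 and 0.29 in FST+LIN28B against FST, without a call.

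**Figure D4:**
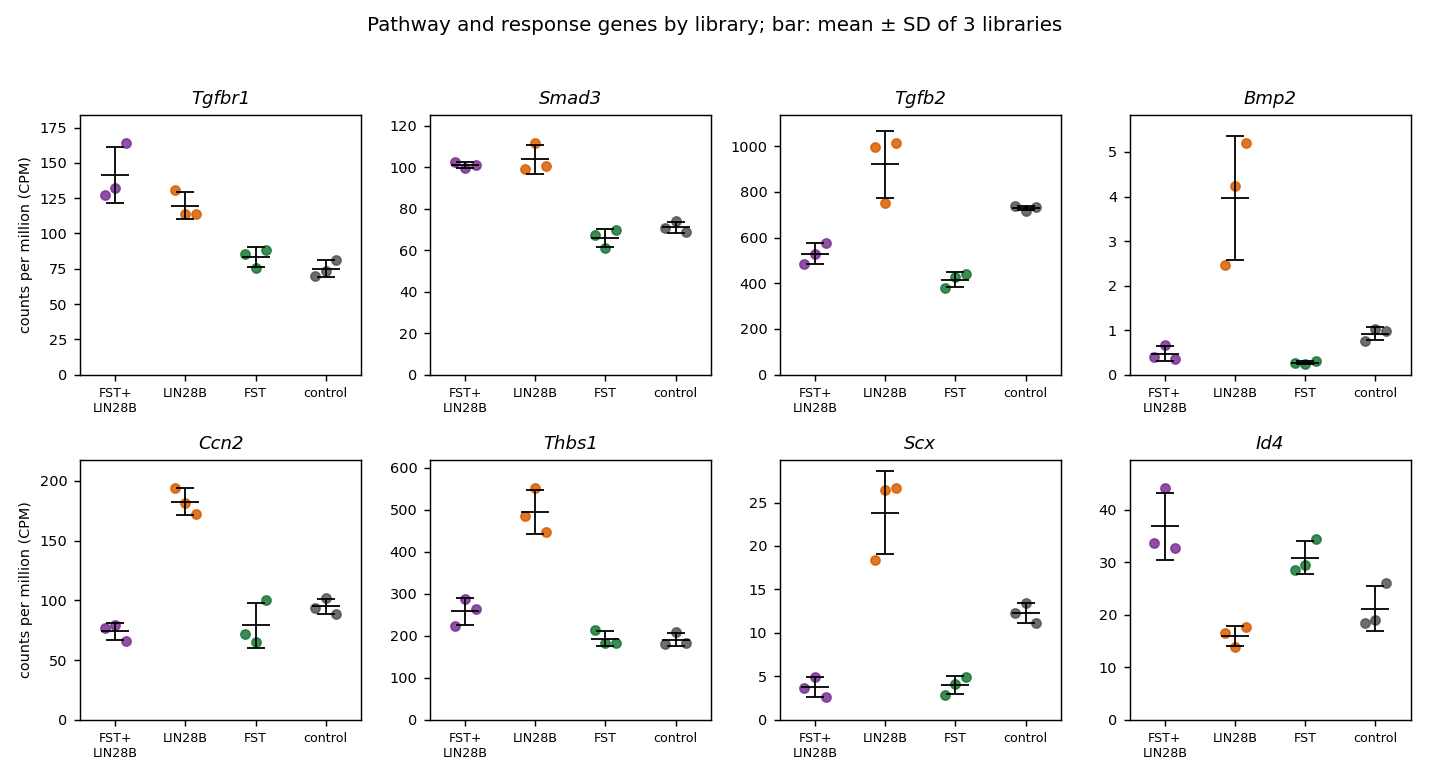
TMM-normalized CPM (linear axes that start at 0) of 8 pathway and response genes in each library, in FST+LIN28B, LIN28B, FST and control organoids, with bars for the mean ± SD of 3. Tgfbr1 and Smad3 were high in both conditions with LIN28B, whereas Scx lay between 2.63 and 4.93 CPM in the 6 libraries with FST and between 11.1 and 26.7 CPM in the 6 without.

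Of 24 tested SMAD2/3 response genes, 4 were called higher in LIN28B than in control (Thbs1, Cdkn2b, Ccn2 and Fn1) and 0 lower, with 10 higher and 2 lower at an unadjusted p under 0.05, 5 higher and 1 lower by DESeq2, and a list median of 0.52. Cdkn2b, which encodes a CDK inhibitor, and Fn1, which encodes fibronectin, had log2 fold changes of 1.64 each (SE 0.19 and 0.32), and Thbs1, which encodes thrombospondin, 1.37 (0.12). In FST+LIN28B against LIN28B, Scx (−2.67, SE 0.26), Ccn2 (−1.30, 0.14) and Thbs1 (−0.94, 0.12) were called lower and 0 genes higher, with 6 lower and 2 higher at an unadjusted p under 0.05, 5 lower and 1 higher by DESeq2, and a median of −0.32. In FST+LIN28B against control, Scx was called lower (−1.71, 0.25) and Tnc, the matrix glycoprotein tenascin C, higher (1.84, 0.30), with a median of −0.02. The call of Fn1 was lost under 14 of 23 alternatives and that of Tnc under 8.

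In FST against control edgeR called 0 of the 24, with 3 higher and 3 lower at an unadjusted p under 0.05, and DESeq2 called 1, lower. Scx differed there by −1.62 (SE 0.25) and did not pass the threshold (edgeR adjusted p = 0.0432). Scx, at 2.63 to 4.90 CPM in FST+LIN28B, 18.3 to 26.7 CPM in LIN28B, 2.89 to 4.93 CPM in FST and 11.1 to 13.4 CPM in control, thus had the order of Pmepa1. It also stands in the list of mesenchymal markers. Of 13 SMAD1/5/9 response genes, only Id4 was called by edgeR, higher in FST+LIN28B than in LIN28B (1.21, 0.17, edgeR adjusted p = 0.00306), with 32.8 to 44.2 CPM in FST+LIN28B, 13.8 to 17.7 CPM in LIN28B, 28.6 to 34.5 CPM in FST and 18.4 to 26.1 CPM in control. DESeq2 called more of this list, with 2 higher and 0 lower in FST+LIN28B against control, 5 higher and 2 lower in LIN28B against control, 2 higher and 1 lower in FST+LIN28B against LIN28B, and 0 higher and 2 lower in FST+LIN28B against FST. By edgeR at an unadjusted p under 0.05 there were 5 higher and 4 lower in LIN28B against control and 4 higher and 0 lower in FST against control, where DESeq2 called 0.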

How the data were processed

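The deposited tables hold estimated counts per transcript for 12 libraries (3 each of FST+LIN28B, LIN28B, FST and control organoids), made by the authors with kallisto 0.46.1 and the Ensembl 96 mouse transcriptome from stranded total RNA, sequenced in pairs of 50 bases. The effective length of each transcript is deposited beside them. The authors pseudo-aligned reads, which divides reads shared by similar transcripts among them by estimation. Totals were 42.7 to 65.3 M per library. Groups and replicate numbers came from the sample labels, and no library was left out.

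Of 118489 transcripts, 116816 had a gene in GENCODE M21 (GRCm38). The other 1673 took 0.543% to 0.598% of counts and were left out. Estimates were summed per gene and rounded to whole numbers. TPM were computed from the counts and effective lengths.

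All genes were tested in 1 fit of the 12 libraries with edgeR 4.0.16 in R 4.3.3 (robust quasi-likelihood test, TMM normalization, filterByExpr with a minimum count of 10 and a minimum total of 15), which left 18780 genes. Calls are at a Benjamini-Hochberg adjusted p under 0.01 over all genes. A standard error is the fitted log2 fold change, without shrinkage, over the root of its F statistic. The authors' own test, sleuth, was not run. Transcript shares were tested with diffSpliceDGE. In simulated data of the same size, 39% of genes changed 2-fold and 62% of genes changed 4-fold were recovered for LIN28B against control, and the transcript test called 34 unchanged genes of 11952. The changed genes were drawn at random from all genes tested, so these rates do not stand for the members. The fitted coefficient of variation between libraries was 0.10 to 0.22 for the members and 0.266 in common over all genes. The transcript simulation gave all transcripts the same spread.

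The members, the gene lists and the named genes were chosen with earlier results of these data known. The text names all 10 members, of each list the called genes (at most 3 per list and comparison, by size of the log2 fold change), for called members the 3 genes of highest correlation (mean of at least 5 CPM, predicted and accession-named genes left out), and member transcripts with at least 10% of their gene. Skil-201, Atoh1, Id1, Id3 and Gata3, and Ccn2 in LIN28B against control, fell outside that rule and were named after their values were seen. The lists were TGF-β and Activin ligands, BMP and GDF ligands, receptors and co-receptors, signaling SMADs, secreted antagonists, other intracellular inhibitors, SMAD2/3 and SMAD1/5/9 response genes, let-7 targets and cell type markers. Alternatives were DESeq2 1.42.0, limma 3.58.1 on log2(TPM + 1) and log2(TPM + 0.1), RLE size factors, library size alone, other filters, length-scaled counts, fits of only the conditions compared, an adjusted p under 0.05, a replicate block and each library left out in turn. Figures used matplotlib. Sequences are from RefSeq tables (GRCm38.p6) and GENCODE M21 transcripts.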

Additional observations from a re-analysis of the deposited data

How the results depend on the processing

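The signs of all called values held under every alternative tried. Of the fold changes of single genes under single alternatives, 1751 kept their side of the threshold, 166 lost it and 28 gained it. Counts of called members were more fragile, and the number of genes called in all often moved too. In FST+LIN28B against control the count of 1 became 3 with DESeq2, 2 with library size alone, 2 with only the conditions compared and 3 at an adjusted p under 0.05, and ranged from 1 to 3 with each library left out, while all genes called, 236 at first, numbered 919 with DESeq2. In LIN28B against control the count of 3 became 6 with DESeq2, 5 with library size alone, 5 with only the conditions compared, 2 with length-scaled counts, 2 with limma on either log2 scale of TPM and 6 at an adjusted p under 0.05, and ranged from 0 to 5 with a library left out, while all genes called, 644 at first, numbered 1585 with DESeq2, 1210 with only the conditions compared, 479 and 488 with limma, and 169 to 1362 with a library left out. In FST against control the count of 1 became 4 with DESeq2 (68 genes in all, against 4) and 0 with library size alone, length-scaled counts, only the conditions compared and limma on either scale, and ranged from 0 to 1. In FST+LIN28B against LIN28B the count of 5 ranged from 3 to 5 with a library left out, was 4 with only the conditions compared, where Skil was lost, and 7 with DESeq2 (454 genes in all, against 95). For FST+LIN28B against FST and for the interaction it stayed 0 under the alternatives run, and for transcript shares it became 1 (Skil-201) at an adjusted p under 0.05 for LIN28B. Calls over the 8 pathway lists and 6 comparisons, a total added after seeing the data, numbered 25, became 72 with DESeq2 and 55 at an adjusted p under 0.05, and ranged from 12 to 51, the highest without FST replicate 2. Among named pathway genes, calls were lost most often for Tgfb2 and Fn1 (14 of 23 alternatives each), Smad3 in FST+LIN28B against control (11) and Ctdspl (10). The causes of these shifts were not tested.

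The 12 libraries did not pair by replicate number: deviations of same-numbered libraries from their condition means correlated at −0.31 to 0.17. With a replicate block, 1 member was called in FST+LIN28B against control, 2 in LIN28B against control, 1 in FST against control and 5 in FST+LIN28B against LIN28B, and 0 member transcripts. With 3 libraries per condition, differences as small as those of Ski and Smurf2 are near the limit of what the spread allows to be seen.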

Other observations

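Within the 6 libraries that carry the FST transgene, the level counted for Fst varied more than that of any membrane inhibitor. The 2 libraries with the highest Pmepa1 were FST+LIN28B replicate 2 (7.14 CPM, with Fst at 334 CPM) and FST replicate 2 (7.02 CPM, with Fst at 116 CPM). The other 4 had Pmepa1 at 5.60 to 6.16 CPM and Fst at 326 to 817 CPM. The relation was noticed in the data, covers libraries of 2 conditions and was not tested. Other members did not share it. In both conditions replicate 2 had the highest Ski but the lowest Smad6, Skil, Bambi, Smurf2 and Tgif1. Bambi, also a membrane inhibitor, was at 22.3 CPM in FST+LIN28B replicate 2 and 18.9 CPM in FST replicate 2. FST replicate 2 was also the shallowest library.

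LIN28B replicate 3 had Lin28b at 193 CPM, against 480 and 473 CPM in LIN28B replicates 1 and 2. Its Smad7 (31.3 CPM), Bambi (67.3 CPM), Ski (104 CPM) and Smurf2 (111 CPM) were the highest of the LIN28B libraries. Its Smad6 (43.4 CPM) and Tgif1 (96.3 CPM) were the lowest, and the remaining members lay in between. Ldlrad4 in LIN28B organoids ranged from 8.28 to 15.1 CPM, the widest relative spread of a member within a condition (SD 3.42 around a mean of 11.8 CPM), and none of the other 3 conditions reached 8 CPM. These are values with no test.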
